A study of Rattus norvegicus with 9 samples.

Results

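The genes described here are 9 adhesion genes that act where leukocytes meet the vessel wall. They were taken by their symbols, Itgam, Itgal, Itgax, Itgb2, Selplg, Icam1, Vcam1, Sele and Selp, and all 9 had a row among the 32883 genes of the deposited rat liver tables. Bulk liver RNA was sequenced from 3 normal rats, 3 ACLF rats of the empty group and 3 ACLF rats of the UTOpiA group. The study's methods describe its rats, without setting the normal ones apart, as male Sprague-Dawley rats aged 8 to 11 weeks. Acute-on-chronic liver failure (ACLF) was produced by ligation of the common bile duct for 21 days and an intraperitoneal injection of lipopolysaccharide (LPS) from E. coli O111:B4 at 0.25 mg/kg. Both ACLF groups then underwent extracorporeal circulation of whole blood for 2 h, and their livers were taken 24 h after LPS from surviving rats, so rats that had died earlier are not represented. In the UTOpiA group the circuit held a column of cellulose acetate beads, which adsorb granulocytes and monocytes (GMA), and a column of alginate-encapsulated, gene-edited hepatocyte-like cells derived from human iPSCs (iHLCs). In the empty group it held neither cells nor GMA. The labels give the normal group only as livers of normal rats, so ligation, LPS and circulation cannot be told apart in a comparison with that group.

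Leukocytes leave the blood in steps. Selectins on endothelial cells and platelets catch passing cells by their carbohydrate ligands, chemokines and other signals then switch the leukocyte integrins into a binding state, and the integrins hold on to immunoglobulin-type receptors of the vessel wall. Sele (E-selectin) and Selp (P-selectin) are such selectins, and Selplg (PSGL-1) is the leukocyte ligand of Selp. Itgal, Itgam and Itgax encode the alpha chains of LFA-1, Mac-1 and CD11c/CD18, which all pair with the beta chain Itgb2. Icam1 is the receptor of LFA-1 and Mac-1 on endothelium and other cells, and Vcam1 that of the integrin made of Itga4 and Itgb1. In the liver, much of the traffic runs through sinusoids, where selectins are known to be less needed than in the veins of other organs. Icam1, Vcam1 and Sele are known targets of NF-kB, a transcription factor that TNF, IL-1 and LPS activate, and the myeloid integrin genes are known targets of the transcription factor PU.1.

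The positions of the 9 genes are those of the deposited tables, whose build the submitters' notes name as rn6. Itgal (ENSRNOG00000017980, 198744050 to 198781750), Itgam (ENSRNOG00000019728, 199495298 to 199623960) and Itgax (ENSRNOG00000036703, 199555722 to 199576932) lie on the plus strand of chromosome 1. The Itgam model spans 128663 bases and contains the whole of Itgax on the same strand, so reads of the one can be lost or counted for the other and the separate values of Itgam and Itgax are uncertain. Selp (ENSRNOG00000002794, 82429063 to 82464628) and Sele (ENSRNOG00000002723, 82355471 to 82365341) are neighbours on the plus strand of chromosome 13. Itgb2 (ENSRNOG00000001224) is on chromosome 20 from 11777783 to 11815647, Selplg (ENSRNOG00000000699) on chromosome 12 from 48577905 to 48579196, Icam1 (ENSRNOG00000020679) on chromosome 8 from 22035256 to 22047059 and Vcam1 (ENSRNOG00000014333) on chromosome 2 from 219071193 to 219097619.

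Sequence before the gene start was at hand for 5 of the 9 genes, as windows of 250 bases in RefSeq's tables for GRCr8, a different build from that of the counts. In the windows of Sele and Itgax all 250 bases fell inside the annotated gene, so only Vcam1, Itgam and Icam1 had bases outside it. Those of Vcam1, a vessel wall gene, and Itgam, a leukocyte gene, are shown because they hold a match to a motif of NF-kB or PU.1. The stretch of Vcam1 is chr2:206742784-206743033 on the minus strand, and that of Itgam chr1:192089342-192089495 on the plus strand. Both are written 5′ to 3′, with capitals for the NF-kB consensus in Vcam1 and for the PU.1 core GAGGAA in Itgam.
Vcam1: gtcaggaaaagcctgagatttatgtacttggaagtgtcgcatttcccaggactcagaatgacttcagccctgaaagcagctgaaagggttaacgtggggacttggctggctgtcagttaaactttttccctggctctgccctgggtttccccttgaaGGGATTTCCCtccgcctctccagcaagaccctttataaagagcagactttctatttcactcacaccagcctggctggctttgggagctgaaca
Itgam: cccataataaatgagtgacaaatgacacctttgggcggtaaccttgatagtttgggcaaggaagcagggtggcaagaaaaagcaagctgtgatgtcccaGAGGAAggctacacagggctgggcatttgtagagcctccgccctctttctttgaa
The match in Vcam1 begins 93 bases before the gene start and reads as the consensus on both strands. The NF-kB consensus, searched on both strands, matched nowhere in the windows of the other 4 genes, and 6.33% of all 33469 windows held it. The PU.1 core, searched on both strands with no letters shared with the NF-kB match, occurred in the Itgam window at 151 bases before the start and, on the other strand, at 39 bases before it, the latter inside the annotated gene and not printed. Of all windows, 23.3% held this core. These are matches of letters and not measured binding.

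The 9 libraries held 14241172 to 17321677 reads counted on genes, and 14089 genes passed the filter on low counts. Replicates differed by more than counting noise, and the SD among the 3 livers of a group was 0.19 to 0.30 on the log2 CPM scale for the median gene. The TPM, reads per gene length scaled to the same total in each liver, were higher in ACLF over most genes, with a median log2 ratio of the group means of 0.55 for the empty group and 0.37 for the UTOpiA group against normal livers, and -0.19 for the UTOpiA against the empty group. In the same livers 6 hepatocyte markers together reached 146600 to 159400 TPM where livers were normal and 29470 to 53920 TPM in ACLF. Log2 fold changes are therefore from edgeR, which scales the counts by TMM factors and gave medians over all genes within 0.06 of 0, and TPM serve to show the level in each liver.

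In normal livers Icam1 was the most abundant of the 9 transcripts, at 37.6 ± 13.0 TPM (SD, n = 3), above Itgb2 at 7.16 ± 0.394 TPM. Itgal (3.41 ± 1.19 TPM) and Selplg (3.19 ± 0.861 TPM) came next and their values overlapped, as did those of Selp (1.54 ± 0.747 TPM) and Vcam1 (1.23 ± 0.231 TPM). Itgam (0.622 ± 0.0801 TPM) and Itgax (0.225 ± 0.153 TPM) were lower, and Sele had no read in any normal liver, which allows up to 3 counts in each. In the empty group Icam1 still led, at 167 ± 148 TPM, and the order below it was Itgb2, Vcam1, Itgal, Selplg, Selp, Itgam, Itgax and Sele, in which every neighbouring pair overlapped. In the UTOpiA group, Icam1 at 67.6 ± 12.3 TPM lay above all other members, Sele at 0.248 ± 0.321 TPM below all, and the neighbours between them overlapped. Vcam1 thus stood above Itgal by its mean in both ACLF groups and below it in normal livers. In the UTOpiA group these means were close, at 16.3 and 15.4 TPM. Itgal lay above Vcam1 in replicate 1 of both ACLF groups and below it in replicates 2 and 3.

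**Figure D1:**
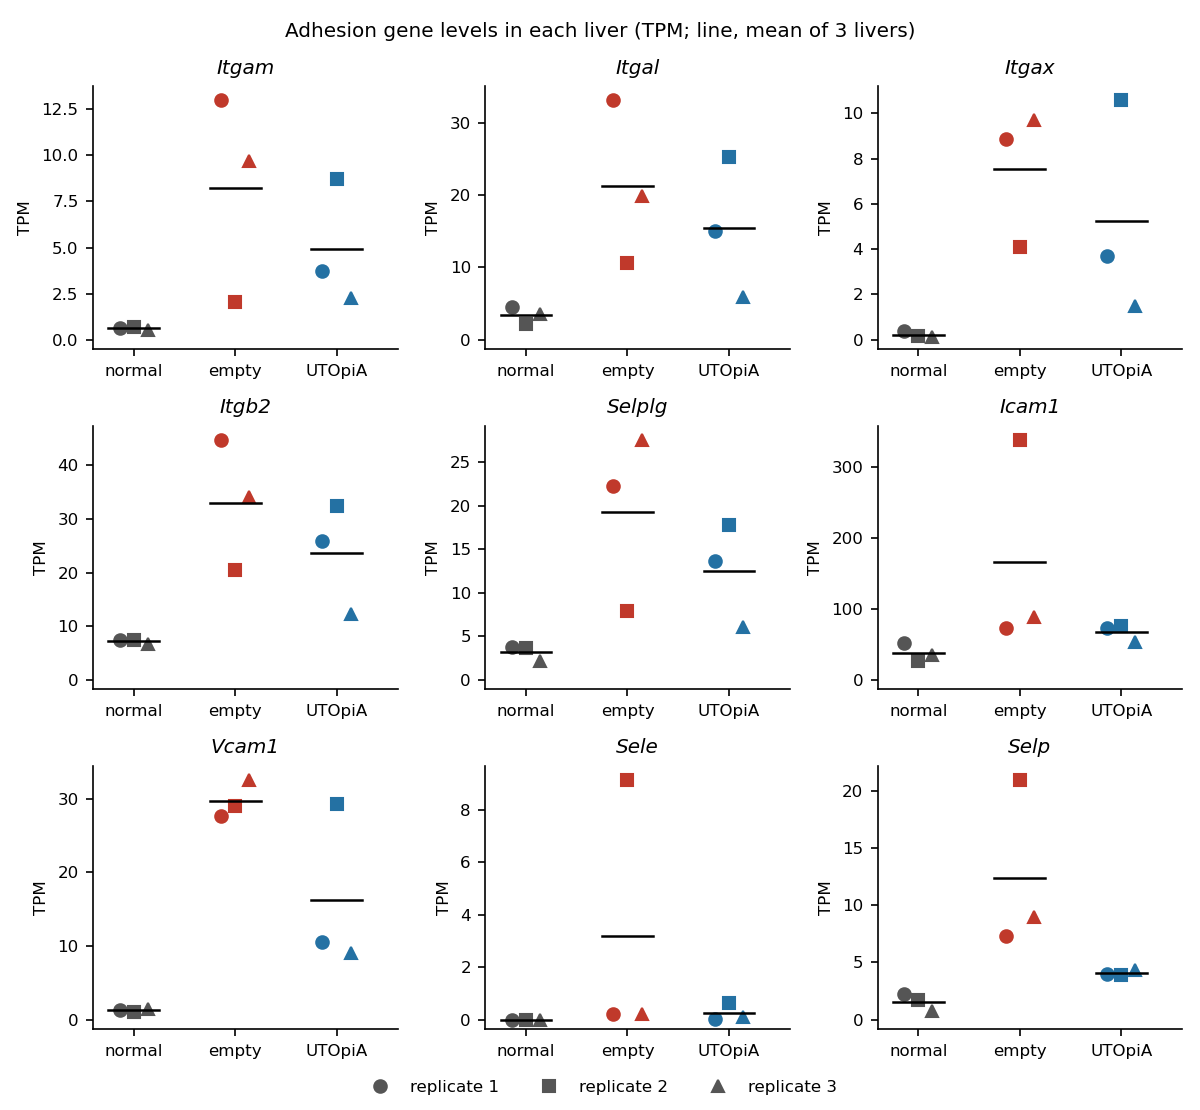
TPM of the 9 adhesion genes (vertical axes, linear, one scale per gene) in the 3 normal livers, 3 livers of the empty group and 3 livers of the UTOpiA group; symbols mark replicates 1 to 3 and lines the group means. Icam1, Sele and Selp were highest in empty replicate 2, at 337, 9.14 and 20.9 TPM, where Itgb2 had its lowest value of the empty group, 20.4 TPM.

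The comparison of the empty group with normal livers asked how the adhesion genes stood in ACLF after circulation through the empty circuit. All 8 members that entered the test were called higher, where DEGs were called at an adjusted p below 0.05 and a fold above 2, and 20.7% of the 14089 genes tested were called higher. Their median log2 fold change was 2.31, compared with 0.04 over all genes. All 9 members had every empty liver above every normal liver on the TPM scale, which was so for 53.4% of the genes tested. Sele failed the filter on low counts and has no fold change from the test.

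Among the integrin chains, Itgax had TPM of 0.401, 0.151 and 0.124 in normal replicates 1, 2 and 3 and of 8.87, 4.11 and 9.72 in empty replicates 1, 2 and 3. The empty livers lay far above all normal livers, and the log2 fold change was 4.54 ± 0.72 (SE, adjusted p = 0.00126). Itgam rose from 0.656, 0.680 and 0.531 TPM to 13.0, 2.06 and 9.67 TPM, a log2 fold change of 3.21 ± 0.67 (SE, adjusted p = 0.00454). The lowest of the empty livers, replicate 2, was still above all normal livers for both myeloid alpha chains. The log2 fold change of Itgam was 2.63 without empty replicate 1 and 2.25 by limma on log2(TPM + 1), and that of Itgax, whose normal livers had 15, 6 and 5 counts, 5.23 without normal replicate 1 and 2.74 by limma on that scale, where the pseudocount is larger than the normal levels of both genes. Itgax was not tested where 10 counts in every library were required, and its call held in the other 17 alternatives. For Itgal, the alpha chain that lymphocytes and most other leukocytes carry, the TPM were 4.49, 2.14 and 3.6 in normal livers and 33.1, 10.6 and 19.9 in the empty group. The groups did not overlap, and Itgal rose by a log2 fold change of 2.13 ± 0.52 (SE, adjusted p = 0.00960). The shared beta chain Itgb2 had 7.34, 7.43 and 6.70 TPM in normal livers and 44.7, 20.4 and 34.1 TPM in the empty group, a log2 fold change of 1.70 ± 0.31 (SE, adjusted p = 0.00208). Its rise was the smallest of the 4 integrin chains and had the smallest error. Selplg rose with them, from 3.75, 3.62 and 2.20 TPM to 22.3, 7.89 and 27.6 TPM (log2 change 2.06 ± 0.46 SE, adjusted p = 0.00561).

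On the vessel wall side, Vcam1 had 1.34, 0.969 and 1.39 TPM in normal livers and 27.6, 29.0 and 32.5 TPM in the empty group. The highest and lowest empty livers differed by 1.18-fold for this gene and by 2.19-fold or more for the other members, and the log2 fold change was 4.06 ± 0.36 (SE, adjusted p = 8.21e-05). Selp had 2.20, 1.70 and 0.729 TPM in normal livers and 7.31, 20.9 and 8.99 TPM in the empty group, a rise on the log2 scale of 2.5 ± 0.50 (SE, adjusted p = 0.00343), which was 1.87 without empty replicate 2 (adjusted p = 0.00362). Empty replicate 2 was the highest for Selp, and far more so for Icam1, which had 51.6, 26.0 and 35.1 TPM in normal livers and 73.3, 337 and 88.8 TPM in the empty group. Icam1 was called at a log2 fold change of 1.63 ± 0.56 (SE, adjusted p = 0.0371), but the call was lost in 9 of 18 alternatives. Without empty replicate 2 the log2 fold change of Icam1 was 0.57 (adjusted p = 0.0878), and without UTOpiA replicate 1, 2 or 3 or normal replicate 2 or 3 it was 1.41 to 1.63 (adjusted p of 0.0520 to 0.116). Sele, the selectin that endothelium makes on activation, had counts of 0, 0 and 0 in normal livers and of 7, 296 and 7 in the empty group. Against a floor of 3 counts in each normal library, its mean TMM-normalised CPM in the empty group was at least 22.1-fold higher with replicate 2 and at least 1.40-fold higher without it. Sele was thus high in replicate 2 and near the floor in the other empty livers.

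The comparison of the UTOpiA group with the same normal livers asked how the adhesion genes stood after treatment. Of the 8 members tested, 6 were called higher, compared with 18.2% of all genes tested, and Icam1 and Selp were not called. Itgax had 3.69, 10.6 and 1.49 TPM in UTOpiA replicates 1, 2 and 3 (log2 change 4.09 ± 0.72 SE, adjusted p = 0.00284) and Vcam1 10.6, 29.3 and 9.02 TPM (log2 change 3.31 ± 0.35 SE, adjusted p = 2.65e-04). Itgb2 had 25.9, 32.4 and 12.3 TPM, a log2 fold change of 1.34 ± 0.31 (SE, adjusted p = 0.00848). In these genes UTOpiA replicate 2 had the highest TPM of the group and replicate 3 the lowest, as in 64.7% and 71.2% of all genes tested, and on TMM-normalised CPM replicate 3 was not the lowest for Vcam1. Itgam had 3.75, 8.71 and 2.26 TPM (log2 change 2.56 ± 0.66 SE, adjusted p = 0.0152). Itgal, at 15.1, 25.3 and 5.89 TPM (1.75, adjusted p = 0.0266), and Selplg, at 13.6, 17.8 and 6.09 TPM (1.58, adjusted p = 0.0229), rose in the UTOpiA group as well. Itgax had a log2 fold change of 3.28 without UTOpiA replicate 2, 4.78 without normal replicate 1 and 2.07 by limma on log2(TPM + 1), by which Itgam had 1.71. The calls of Itgal and Selplg held in 12 of 18 alternatives each and that of Itgam in 15. Without UTOpiA replicate 2, 3 members were called (14.6% of all genes), namely Itgax, Itgb2 and Vcam1, as they were without normal replicate 3 (15% of all genes), and the log2 fold changes of Itgam, Itgal and Selplg were then 2.06, 1.37 and 1.39 and 2.46, 1.80 and 1.38. Itgal and Selplg also missed the threshold without UTOpiA replicate 1 (adjusted p = 0.0602 and 0.0623) and without normal replicate 2 (0.0883 and 0.0580), and Selplg without normal replicate 1 (0.0508).

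Icam1 had 73.3, 76.0 and 53.5 TPM in the UTOpiA group, 0.52 ± 0.54 on the log2 scale above normal livers (SE, adjusted p = 0.480). Selp had 4.0, 3.92 and 4.30 TPM, which were 1.11 ± 0.49 on the log2 scale above normal livers (SE, adjusted p = 0.102). On the TPM scale the UTOpiA livers differed little from each other for Selp, although the empty and normal livers varied. Their counts were 107, 115 and 126 in replicates 1, 2 and 3. On TMM-normalised CPM these livers lay further apart, with replicate 3 again the highest and replicate 2 the lowest, so the closeness is limited to TPM. Selp was called in 3 of 18 alternatives, namely with only the 6 livers compared (adjusted p = 0.0495), without empty replicate 2 (0.0315) and by limma on log2(TPM + 0.1) (0.0322). Sele had 1, 20 and 3 counts in the UTOpiA group, of which the counts of 1 and 3 were at or under the floor, and replicate 2 alone was at least 4.03-fold above the floor of the normal livers.

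**Figure D2:**
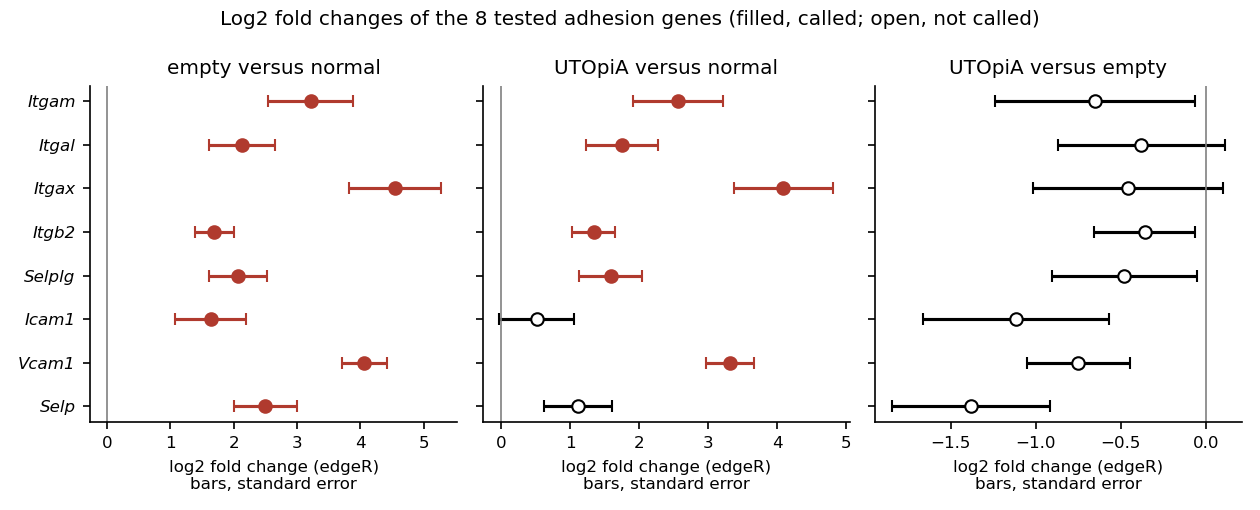
Log2 fold change from edgeR (horizontal axes, each panel with its own scale) of the 8 tested adhesion genes in the 3 comparisons, with bars for the standard error; filled points were called at an adjusted p below 0.05 and a fold above 2. All 8 were called in the empty against the normal group, 6 in the UTOpiA against the normal group and 0 in the UTOpiA against the empty group, where all 8 points lie below 0.

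Between the UTOpiA and the empty group, which both underwent circulation, edgeR called 0 of the 8 members, and 0% of all genes tested in either direction. DESeq2 also called 0 members, and 0.504% of all genes lower. The log2 fold changes of all 8 members were below 0, with a median of -0.57, compared with 49.8% of all genes below 0 and a median of 0.00. Before adjustment, Selp and Vcam1, 2 of the 8 members, had a p under 0.05, as did 4.56% of all genes with lower values.

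With all libraries, Selp had the lowest fold change of the 8 members tested, which do not include Sele. Itgam was lowest without empty replicate 2 (-1.11 on the log2 scale), and Vcam1 and Itgax lay below Selp without UTOpiA replicate 2 (each -1.26). For Selp, all 3 UTOpiA livers, at 3.92 to 4.30 TPM, lay below all 3 empty livers, at 7.31 to 20.9 TPM, an order that 8.62% of the genes tested shared. The log2 fold change was -1.38 ± 0.47 (SE, adjusted p = 0.396 from edgeR), and -0.75 without empty replicate 2 (adjusted p = 0.379). Vcam1 had a log2 fold change of -0.75 ± 0.30 (SE, adjusted p = 0.455 from edgeR). Its UTOpiA replicates 1 and 3 lay below all empty livers, whereas replicate 2, at 29.3 TPM, lay within them. Without UTOpiA replicate 2 the log2 fold change of Vcam1 was -1.26 and passed the threshold (adjusted p = 0.0376), the only call of a member between these groups in 18 alternatives, where 0.119% of all genes were called lower. Icam1 had a log2 fold change of -1.12 ± 0.55 (SE, adjusted p = 0.520), which was -0.05 without empty replicate 2. For Sele, the empty livers had a mean of 3.19 ± 5.16 TPM and the UTOpiA livers of 0.248 ± 0.321 TPM (SD, n = 3), with overlap between them. The direction rested on empty replicate 2. Without it the empty mean of Sele was 0.349 TMM-normalised CPM, below the 0.433 of the UTOpiA group. The 5 leukocyte members had log2 fold changes of -0.36 (Itgb2) to -0.65 (Itgam), with SEs of 0.30 to 0.59 and adjusted p of 0.712 to 0.824, and the groups overlapped in each. Without empty replicate 1 these were -0.01 for Itgb2, -0.07 for Itgam and 0.18 for Itgal, the last turning above 0, and without UTOpiA replicate 2 they were -1.15 for Itgam and -1.26 for Itgax.

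The members fell into different orders across the ACLF livers. Itgam, Itgal, Itgax, Itgb2 and Selplg all had their lowest value of the empty group in replicate 2, and all 5 had the highest value of the UTOpiA group in replicate 2 and the lowest in replicate 3. These extremes were the same on TMM-normalised CPM, where empty replicate 2 was the lowest of its group in 36.2% of all genes tested, UTOpiA replicate 2 the highest in 36.9% and UTOpiA replicate 3 the lowest in 35.5%. Icam1, Selp and Sele had their highest value of all 9 livers in empty replicate 2. Vcam1 varied little in the empty group, where its lowest value was in replicate 1. As a description over the 6 ACLF livers, Pearson's r of log2 CPM was 0.82 to 0.98 among the 10 pairs of leukocyte members, 0.88 for Icam1 with Selp, 0.44 for Vcam1 with Selp, 0.31 for Icam1 with Vcam1, and -0.24 to -0.67 for Icam1 with the leukocyte members. Vcam1 had an r of 0.39 to 0.76 with the leukocyte members. These values share the libraries and their scaling.

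**Figure D3:**
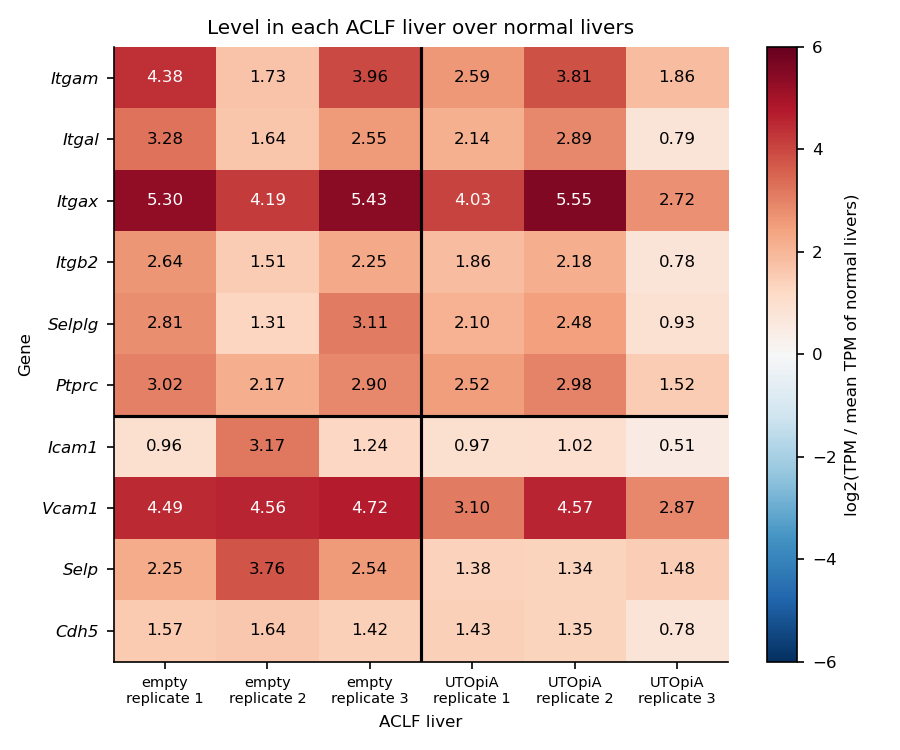
Log2 of the TPM in each ACLF liver (columns) over the mean TPM of the normal livers for 5 leukocyte adhesion genes with the leukocyte marker Ptprc (upper rows) and 3 vessel wall genes with the endothelial marker Cdh5 (lower rows); numbers give the plotted values and Sele is left out because it had no reads in normal livers. Itgam is lowest of the empty group in replicate 2 (1.73), where Icam1 (3.17) and Selp (3.76) are highest.

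The levels of cell type markers were set beside those of the members. All 4 pan-leukocyte markers were called higher in both ACLF groups, and their summed TPM were 18.1 to 23.0 in normal livers, 96.7 to 243 in the empty livers and 62.3 to 195.5 in the UTOpiA livers. The summed TPM of 9 neutrophil markers were 2.36 to 5.92 in normal livers, 189 to 1108 in the empty livers and 175 to 507.5 in the UTOpiA livers, with Ltf at 0 in every liver and Cxcr2 and Mpo at 0 in the normal livers. Of 8 macrophage and 8 T and NK cell markers, 6 and 6 were called higher in the empty livers and 5 and 7 in the UTOpiA livers. Ptprc (CD45), which all leukocytes carry, had 26.7, 14.9 and 24.7 TPM in the empty livers and 18.9, 26.0 and 9.48 TPM in the UTOpiA livers, and was thus lowest in the livers where the leukocyte members were lowest. Of 8 vascular endothelial markers, 3 were called higher and 1 lower in the empty group, and 0 of 6 sinusoidal endothelial markers were called. Of 7 stellate cell and fibroblast markers, 5 were called higher in each ACLF group, and their sum was 107 to 119 TPM in normal, 523 to 831 TPM in empty and 422 to 752 TPM in UTOpiA livers. Of 2 platelet markers tested, named here after their values were seen, Pf4 was called higher and Itga2b lower in the empty group (log2 fold changes 3.16 and -1.07), and Pf4 was called higher and Itga2b not called in the UTOpiA group (2.85 and -0.88). The 6 platelet markers listed summed to 7.41 to 9.05, 18.8 to 38.4 and 13.1 to 28.9 TPM in the normal, empty and UTOpiA livers, and 6 dendritic cell markers to 3.75 to 4.01, 10.4 to 33.3 and 4.83 to 11.8 TPM. Of these dendritic cell markers 4 were tested. In the empty livers 1 was called higher and in the UTOpiA livers 0, compared with 20.7% and 18.2% of all genes. The dendritic cell sum was highest in empty replicate 2, where Itgax was the lowest of its group, and the sum of 4 B cell markers overlapped between all groups. How much of each member's change these markers account for was not tested. In bulk liver RNA, fewer cells of a type and less RNA per cell cannot be told apart.

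Relative to these markers, the members separated. The ratio of Itgax to Ptprc in TPM was 0.10, 0.0438 and 0.0510 in normal livers, 0.332, 0.277 and 0.394 in the empty livers and 0.196, 0.407 and 0.157 in the UTOpiA livers. Every ACLF liver lay above every normal liver, with a difference in the mean log2 ratio of 2.45 for the empty and 1.94 for the UTOpiA group. The ratio of Itgb2 to Ptprc lay the other way, at 1.83, 2.16 and 2.75 in normal livers, 1.67, 1.37 and 1.38 in the empty livers and 1.37, 1.25 and 1.30 in the UTOpiA livers, a difference of -0.59 and -0.76 in the mean log2 ratio. For Itgal the log2 ratio differed by -0.17 between the empty and normal groups, with SDs of 0.42 and 0.64, and the groups overlapped, as they did for Itgam. Selplg over Ptprc lay lower in every UTOpiA liver than in every normal liver (difference -0.49 on the log2 scale), and the empty and normal livers overlapped. The ratio of Vcam1 to Cdh5 (VE-cadherin), an endothelial junction gene called higher in the empty group at a log2 fold change of 1.03, was 0.145, 0.0944 and 0.154 in normal livers, 0.981, 0.980 and 1.28 in the empty livers and 0.413, 1.21 and 0.554 in the UTOpiA livers. Selp over Cdh5 lay higher in every empty liver than in every normal liver (difference 1.45 on the log2 scale), whereas the UTOpiA and normal livers overlapped (difference 0.36). Icam1 over Cdh5 overlapped between all groups. Over the 25 ratios tested, the smallest p of the two-sided exact permutation test was 0.1, the lowest that 3 livers against 3 can give, and the adjusted p were 0.312 or above.

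The make-up of the integrin alpha chains was taken as the share of each in the summed TPM of Itgal, Itgam and Itgax. Itgal made up 80.9%, 72% and 84.6% in normal livers, 60.3%, 63.3% and 50.7% in the empty livers and 66.9%, 56.7% and 61.1% in the UTOpiA livers. Itgax made up 7.24%, 5.09% and 2.92% in normal livers, 16.1%, 24.5% and 24.7% in the empty livers and 16.4%, 23.8% and 15.4% in the UTOpiA livers. The share of Itgal was lower and that of Itgax higher in every ACLF liver than in every normal liver, and the means of the empty and normal groups differed by 21.1 and 16.7 percentage points. The share of Itgam, 15.7 ± 6.22% in normal livers and 20.2 ± 6.86% in the empty group (SD, n = 3 each), overlapped. Each of the separated shares had p = 0.1 in the two-sided exact permutation test, its lowest possible value, and an adjusted p of 0.225 over 9 tests. The sum of the alpha chains over Itgb2 was 0.400 to 0.756 in normal livers, 0.824 to 1.23 in the empty livers and 0.782 to 1.37 in the UTOpiA livers. Between the UTOpiA and the empty group, all 3 shares overlapped. Because the Itgam model covers Itgax, the split between these chains depends on how reads were assigned, and a further alpha chain, Itgad, was not analysed here.

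**Figure D4:**
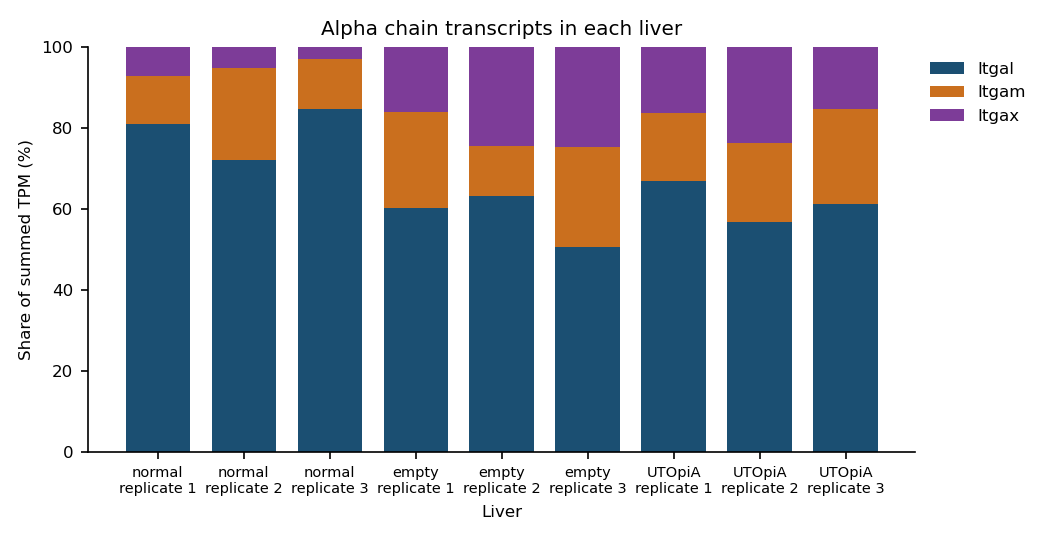
Share of Itgal, Itgam and Itgax in their summed TPM (vertical axis, percent) in each of the 9 livers, shown as stacked bars. Itgal is at 72% or more in the normal livers and at 66.9% or less in the ACLF livers, and Itgax at 7.24% or less and at 15.4% or more.

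Around the 9 members, 74 other genes of adhesion were tested in 6 lists. In the empty against the normal group, 41 of the 74 were called higher and 3 lower, and in the UTOpiA against the normal group 32 were called higher and 2 lower. Of the genes tested in all, 20.7% and 11.1% were called higher and lower in the former comparison and 18.2% and 6.81% in the latter, and both share the normal livers. Between the UTOpiA and the empty group edgeR and DESeq2 called 0 of the 74, and 57 had a log2 fold change below 0. Before adjustment, 9 had a p under 0.05 with lower values and 1 with higher values, compared with 4.56% and 5.77% of all genes.

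Of 8 other leukocyte and partner integrins, 3 were called higher in the empty livers and 1 in the UTOpiA livers, both against normal livers. The shares of all genes called higher were 20.7% and 18.2%. Itga4, the alpha chain of the Vcam1 receptor, was higher in the empty group by a log2 fold change of 1.18 (adjusted p = 0.0152) and in the UTOpiA group by 1.35 (adjusted p = 0.0107). Its partner Itgb1 (log2 fold change 1.16, adjusted p = 0.00198) and the beta chain Itgb7 (2.00, adjusted p = 0.0189) were called in the empty group. Of 15 selectin ligand genes, most of them ligand carriers and the enzymes that glycosylate them, 9 were called higher and 1 lower in each ACLF group. The hyaluronan receptor Cd44 rose from a mean of 0.604 TPM to 99.9 TPM in the empty group (log2 fold change 6.84) and 51.4 TPM in the UTOpiA group (5.97), and Cd24, a P-selectin ligand that bile duct cells also carry, rose by 6.17 and 5.5. The summed TPM of 5 cholangiocyte markers, all called higher, were 14.2 to 22.5 in normal livers, 175 to 365 in the empty livers and 88.3 to 289 in the UTOpiA livers, and their part in the values of Cd44 and Cd24 was not tested.

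Among 14 genes that switch integrins on inside the leukocyte, 7 were called higher and 0 lower in each ACLF group against normal livers. Apbb1ip (RIAM), which links Rap1 to talin, rose by a log2 fold change of 2.86 and 2.5 in the empty and UTOpiA groups, and the adaptor Lcp2 (SLP-76) by 2.34 and 1.93. Of 16 genes of endothelial junctions and transmigration, 6 were called higher and 2 lower in the empty livers and 3 higher and 1 lower in the UTOpiA livers. Of all genes tested, 20.7% and 11.1% were called higher and lower in the empty livers. In the UTOpiA livers these shares were 18.2% and 6.81%, near those of the 16 genes. Mcam and Jam2, adhesion molecules of endothelial junctions, rose by 2.28 and 1.83 in the empty group, and Cd99l2 was lower by a log2 fold change of -1.97 (adjusted p = 0.0247). Of 8 proteases and partners that shed adhesion molecules from the cell surface, 7 were called higher in the empty livers and 4 in the UTOpiA livers. Adam8 had a log2 fold change of 4.40 in the empty group (adjusted p = 1.57e-04) and 3.63 in the UTOpiA group (adjusted p = 5.59e-04), and Rhbdf2, a partner of the sheddase Adam17, of 2.72 and 2.26.

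The inducers of the endothelial adhesion genes, 13 tested genes of the TNF, IL-1 and NF-kB pathways, had 9 called higher in the empty livers and 8 in the UTOpiA livers against normal livers. Il1b rose by a log2 fold change of 5.11 in the empty group (adjusted p = 0.00211) and 2.95 in the UTOpiA group (adjusted p = 0.0249), and Relb, an NF-kB subunit, by 4.16 and 3.8. Between the UTOpiA and the empty group edgeR called 0 of the 13, with 12 below 0 and a median log2 fold change of -0.52. The 5 with an unadjusted p under 0.05, named here after their values were seen, were Il1b, Myd88, Nfkbia, Tnfaip3 and Birc3, with log2 fold changes of -2.16, -0.55, -1.77, -1.90 and -1.57 and adjusted p of 0.348 to 0.454. In the empty group Nfkbia, the NF-kB inhibitor that NF-kB itself induces, had 114, 634 and 150 TPM in replicates 1, 2 and 3, Tnfaip3 had 23.6, 183 and 24.1 TPM and Il1b 66.3, 198 and 31.2 TPM. Of the 13 inducers, 11 had their highest TPM of the empty group in replicate 2, as did Icam1, Sele and Selp, compared with 36.3% of all genes tested. So did 10 of the 16 genes of endothelial junctions and transmigration, and 0 to 3 genes of each other list. Of the 15 selectin ligand genes, 11 were highest in replicate 3.

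**Figure D5:**
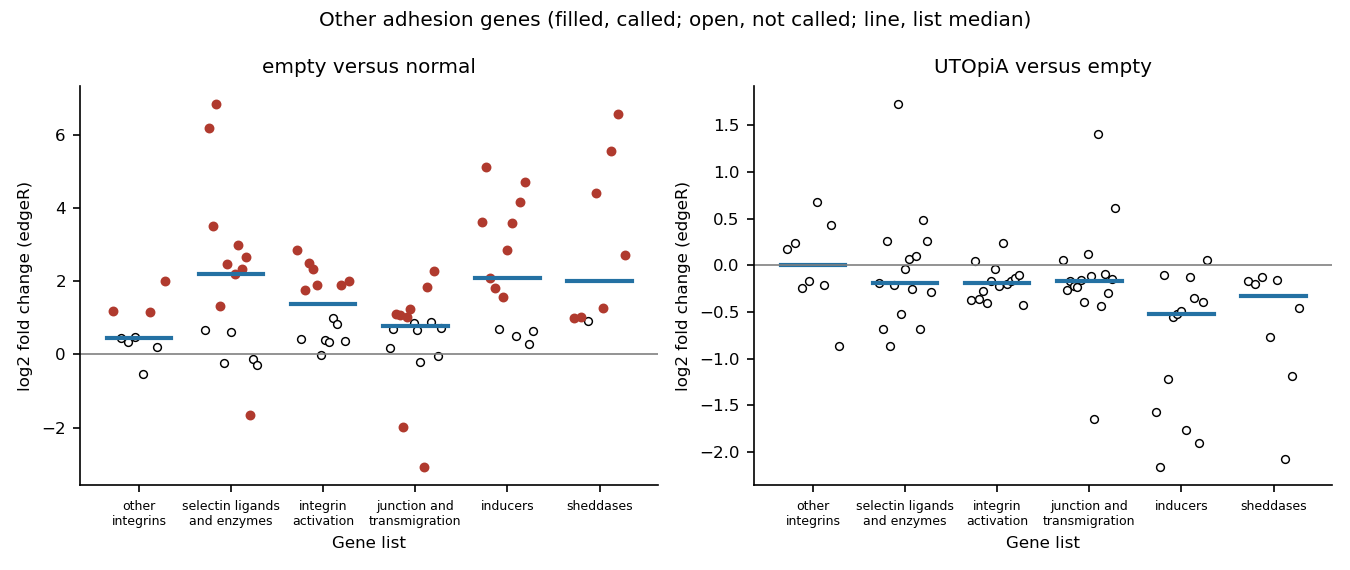
Log2 fold change from edgeR (vertical axes) of each tested gene in 6 lists of other adhesion genes for the empty against the normal group (left) and the UTOpiA against the empty group (right); filled points were called and lines are list medians. The inducers have a median of 2.08 on the left and -0.52 on the right, where 0 genes were called.

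The genes whose log2 CPM followed each member most closely over all 9 livers were, by Pearson's r, Slpil2 (0.99), Cd68 (0.99) and Capg (0.99) for Itgb2, Dcn (0.99), Slpil2 (0.99) and C5ar1 (0.99) for Itgam, and Pik3cg (0.99), Fscn1 (0.98) and Prex1 (0.98) for Itgal. For Itgax they were Rhog, Timp2 and Piezo1 (each 0.99), and for Selplg Rassf5, Hcls1 and C5ar1 (each 0.98). Icam1 was followed by Ier2 (0.98), Spry1 (0.98) and Ccl4 (0.97), Vcam1 by Boc, Inhbb and Cd44 (each 0.99), and Selp by Vps37c (0.97), Epc2 (0.96) and Jmjd1c (0.96). Over the 6 ACLF livers, where the difference from normal livers plays no part, the closest genes were Vav1 (r = 1.00) for Itgb2, RT1-Da (1.00) for Itgam, Wipf1 (1.00) for Itgal, Ms4a7 (1.00) for Itgax, Pram1 (1.00) for Selplg, Pnpla5 (1.00) for Icam1, Arl10 (1.00) for Vcam1 and Rbm18 (0.99) for Selp. Each is the best of all genes tested over few livers, so values near 1 are a description and carry no test.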

How the data were processed

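Bulk RNA-seq of 9 rat livers (3 per group) was analysed, with groups and columns taken from the labels. The authors trimmed the reads, aligned them with HISAT2, counted them per gene with featureCounts and deposited raw counts and TPM, scaled by gene length to a fixed total per library. The submitters' notes name Trimmomatic and rn6, whereas the study's methods name Cutadapt and the mouse build GRCm38. The labels name NEBNext and the methods MGIEasy directional kits, both with poly(A) selection, and whether reads were counted by strand is not given in the sources used here, so overlapping genes could share reads.

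The counts were analysed in R 4.3.3 with edgeR 4.0.16: filterByExpr (14089 genes kept), TMM, all 9 libraries, 1 mean per group, robust dispersion and the two-sided quasi-likelihood test, adjusted over all genes by Benjamini-Hochberg. DEGs had an adjusted p under 0.05 and a fold above 2. The standard error is the log2 fold change over the square root of the F statistic. Ratios and shares were compared on TPM by the two-sided exact permutation test (SciPy 1.17.1), with Benjamini-Hochberg adjustment. Floors of 3 counts cover counting error only. The test was tried on simulated counts first.

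Alternatives were DESeq2 1.42.0, median-of-ratios (RLE) scaling, no filter, at least 10 counts in every library, a fit of only the 6 libraries compared, a block for the replicate number, omission of each library, limma 3.58.1 on log2(TPM + 1) or log2(TPM + 0.1), keeping genes at a mean of 1 TPM or all genes, and no fold threshold. Ratios and shares were also taken with other reference genes, with counts in place of TPM and with each library left out. The members, lists and tests were chosen with earlier results of these data known. Genes named beyond the members were those with the largest called changes, up to 4 per list and comparison, Ptprc and Cdh5, and the 3 genes most like each member, unless stated otherwise. A further gene that the rule names and the genes edited in the iHLCs are not reported here. Itgad and Pecam1 were planned and not analysed here, since no row carried their symbols, so Cdh5 alone was the main endothelial reference. Of 79 other pathway genes listed, 77 had a row and 74 were tested, and of 77 listed markers all had a row. RefSeq (GRCr8) windows were matched by symbol for 5 members.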

Additional observations from a re-analysis of the deposited data

How the results depend on the processing

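In the empty against the normal group, 7 to 9 members were called with a library left out, and in the UTOpiA against the normal group 3 to 7. The 9 were reached without empty replicate 1 or 3, where Sele was tested and called (adjusted p = 0.0309 and 0.0308, in 2 of the 11 alternatives that tested it). There the remaining empty livers had 296 and 7 counts and the normal livers 0. Sele passed the filter through livers where it was high, so these calls are no separate support. With limma on log2(TPM + 1) and no filter on TPM, 3 members were called in the UTOpiA against the normal group instead of 6. The log2 fold changes of Selplg, Itgal and Itgam by limma were the same with and without that filter. Their adjusted p were 0.0314, 0.0326 and 0.0439 with it and 0.0513, 0.0516 and 0.0702 without it. The cause was not tested. Between the UTOpiA and the empty group, leaving out a library gave 0 to 1 members and 0 to 1 other adhesion genes, and the 1 of each came without UTOpiA replicate 2. The log2 fold change of Itgal between these groups ranged from -0.76 to 0.18 with a library left out and turned above 0 without empty replicate 1. With the replicate number as a block, 7, 6 and 0 members and 43, 32 and 0 other adhesion genes were called in the 3 comparisons, compared with 8, 6 and 0 members and 44, 34 and 0 genes without it. Same-numbered livers did not deviate together (r of -0.18 to 0.06 across genes) and 1 of 9 livers correlated best with its own number, so the numbers were not taken as pairs.

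The differences in alpha chain shares between the UTOpiA and the empty group, in percentage points, ranged from -0.19 to 6.12 for Itgal and from -4.22 to 1.96 for Itgam with a library left out. The log2 ratios to the reference gene that changed sign in this way ranged from -0.52 to 0.10 for Itgal, -0.53 to 0.0081 for Selplg and -0.34 to 0.73 for Icam1 in the empty against the normal group, from -0.077 to 0.70 for Selp in the UTOpiA against the normal group, and from -0.80 to 0.11 for Itgam, -0.35 to 0.045 for Itgal, -0.50 to 0.035 for Selplg and -1.03 to 0.038 for Icam1 between the UTOpiA and the empty group. With no reference gene, that is as TPM alone, the log2 differences of Itgal (2.56 and 2.01), Itgb2 (2.14 and 1.61) and Selplg (2.45 and 1.88) in the empty and UTOpiA groups against normal livers were above 0, and that of Icam1 in the UTOpiA group was 0.89. With a mean of several reference genes the latter was 0.10, compared with -0.30 with Cdh5.

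The depth limits Sele, whose counts were under 10 in 7 of 9 livers, and 3 livers per group limit all comparisons.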
